A study of Mus musculus with 6 samples.

Results

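Id1, Id2, Id3 and Id4 (inhibitor of DNA binding) form the whole Id gene family of the mouse, and their 4 rows were taken by symbol from the 34203 rows of a single-cell count matrix of the subventricular zone (SVZ). Id proteins carry a helix-loop-helix domain but no basic region, so they dimerize with E proteins (the partners Tcf3, Tcf4 and Tcf12) and keep them and the tissue-specific basic helix-loop-helix (bHLH) factors off DNA. BMP and TGF-beta signaling through Smads is a well-known inducer of Id transcription, and Id genes are known in the adult SVZ for keeping stem cells undifferentiated. In immune cells, Id2 is known for its role in the development of several lymphoid and dendritic lineages.

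The cells came from tamoxifen-treated Nestin-CreERT2:R26-yfp mice in 3 conditions with 2 libraries each, namely uninjured, 1 day after photothrombotic ischemia of the cortex (PT D1) and 7 days after it (PT D7). In photothrombotic ischemia (PT), Rose Bengal and light close cortical vessels, and the ipsilateral SVZ, which lies at a distance from the lesion, was dissected. From it, CD11b+CD45low microglia were sorted, as were neural stem and progenitor cells (NSPCs), these by the yellow fluorescent protein that Cre switches on in cells with Nestin promoter activity and in their progeny. All mice, including the uninjured ones, carried both alleles and received tamoxifen, and the sources used here do not say how many mice stand behind a library.

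The matrix holds unique molecular identifiers (UMIs, counts of single mRNA molecules) of 658 cells, 222 of them NSPCs, 416 microglia and 20 that the authors named unknown or ependymal. The authors' table divides NSPCs into 50 quiescent type B cells (the resting stem cells), 45 activated ones, 47 type C cells (the dividing progenitors) and 80 neuroblasts. Levels are given as UMIs of a gene per 1000000 UMIs of the same cells (CPM). A cell held 1001 to 27321 UMIs, and the sums per library ran from 82504 to 497292 UMIs in NSPCs and from 294984 to 468186 in microglia. The 7 markers of quiescent type B cells summed to 15924 CPM in the cells of that name and to at most 1360 CPM in any other NSPC or microglial subtype, and the 8 microglial markers summed to between 261 and 637 CPM in the NSPC subtypes and between 5082 and 16368 CPM in the microglial ones. No cell name was shared by libraries.

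By GENCODE on GRCm39, the build to which the reads were aligned, the 4 genes are protein coding and lie apart on 4 chromosomes. Id1 is at chr2:152566218-152579544 on the plus strand, with 2 exons in its canonical transcript. Id2 is at chr12:25143798-25147282 on the minus strand, Id3 at chr4:135870808-135873066 and Id4 at chr13:48414558-48419502, both on the plus strand, each with 3 exons. Each of the 4 overlaps at least 1 long noncoding RNA on the opposite strand (Gm75058 at Id1, Gm36287 and Gm59395 at Id2, Gm57159 at Id3 and Gm49291 at Id4), and the strand setting of the authors' counting is not given, so UMIs of the antisense RNAs could not be told apart from those of the Id genes.

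Of the 4 genes, 3 matched the RefSeq promoter table (Id2, Id3 and Id4), and Id1 did not. Their 250 bases before the RefSeq start were searched on both strands for the E box CANNTG, the site that E proteins bind and Id proteins keep free, for the CCAAT box and for the GC-rich Smad motif GGCGCC. The sequences are shown because Id2 and Id4 parted in their levels, Id2 being high in some microglia as well and Id4 below 10 CPM in each microglial subtype. On GRCm39 the window of Id2 lies at chr12:25146092-25146341, that of Id3 at chr4:135870883-135871132 and that of Id4 at chr13:48414342-48414591. All 250 bases of the Id2 and Id3 windows lie in exons that GENCODE annotates for these genes. Only 30 bases around the E box are therefore printed for Id2 (minus strand, chr12:25146270-25146299) and none for Id3. For Id4 the 216 bases before its first annotated exon are printed (plus strand, chr13:48414342-48414557). Both are written 5′ to 3′ with every match in capitals, where ATTGG is the CCAAT box on the other strand.
Id2: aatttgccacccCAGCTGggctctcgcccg
Id4: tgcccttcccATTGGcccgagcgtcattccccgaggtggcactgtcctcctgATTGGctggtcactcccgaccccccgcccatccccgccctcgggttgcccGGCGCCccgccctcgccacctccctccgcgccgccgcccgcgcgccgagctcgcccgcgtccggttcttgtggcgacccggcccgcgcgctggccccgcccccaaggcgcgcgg

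In its window Id2 held 1 E box, 3 CCAAT boxes and 1 GGCGCC, Id4 held 2 CCAAT boxes and 1 GGCGCC, and Id3 held none of these motifs. No match overlapped another. Of the 32851 promoters of the same length in the table, 66.2% held CANNTG, 33.8% CCAAT and 9.59% GGCGCC, and 2.79% held 3 or more CCAAT boxes. The windows were 62.8% (Id2), 62.8% (Id3) and 75.6% (Id4) G and C, against a median of 52.4% over all promoters.

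All 4 Id genes had their highest NSPC level in quiescent type B cells, and from there they parted. Along the order quiescent type B, activated type B, type C cell and neuroblast, Id1 went from 129 to 81.7, 15.2 and 10.9 CPM, Id2 from 707 to 48.0, 58.2 and 34.8 CPM, and Id3 from 704 to 36.0, 12.6 and 13.0 CPM. Id4 went from 667 to 123, 215 and 189 CPM. Thus, pooled over conditions, Id1 was still found in activated type B cells, and Id2 and Id3 were low in every later subtype. Id4 stayed at 123 CPM or more in these pools, but not in each condition. In uninjured activated type B cells Id4 stood at 28.9 CPM (3 UMIs in 8 cells, exact 95% Poisson interval 5.97 to 84.6 CPM). It stood at 135 CPM (91.2 to 193 CPM) in 25 such cells of PT D1 and 198 CPM (117 to 313 CPM) in 12 of PT D7. A single cell held 10 of the 30 Id4 UMIs at PT D1, and another 8 of the 18 at PT D7. The intervals cover counting error only. The 12 cells of PT D7 all came from library 2, and the change with condition in this subtype was not tested. The subtypes had been drawn by the authors from the expression of these cells, Id genes included, so the differences between subtypes are a description with no test.

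**Figure D1:**
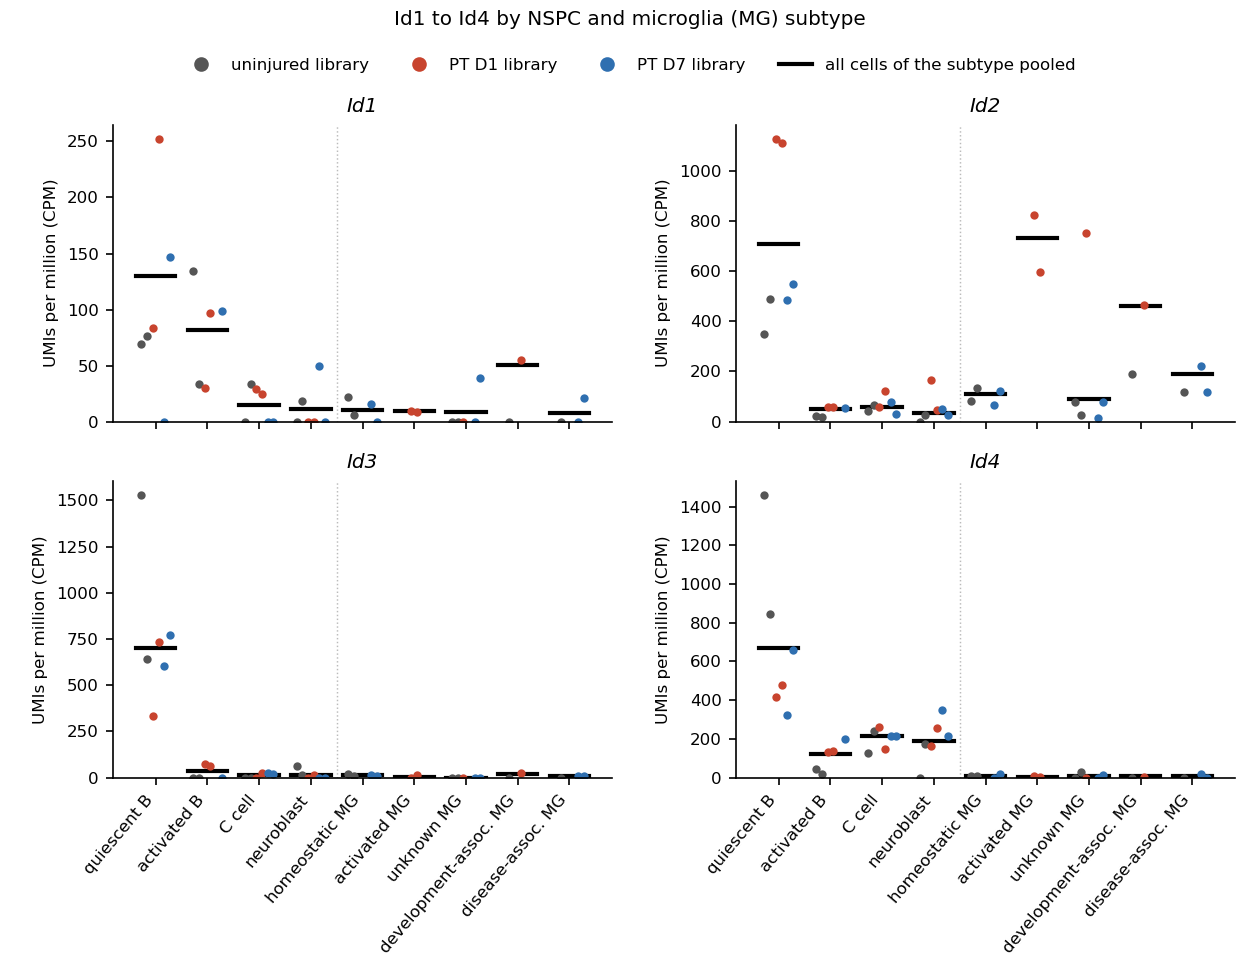
Levels of Id1 to Id4 (CPM) in 4 NSPC and 5 microglial subtypes. Points are libraries with at least 3 cells of the subtype, colored by condition, and black lines pool all its cells. Quiescent type B cells lead all 4 panels among NSPCs, at 129, 707, 704 and 667 CPM. Among microglia Id2 is highest, with 732 CPM in the activated and 462 CPM in the development-associated subtype, where Id1 stands at 50.9 CPM.

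For Id1, the mean over libraries was 105 ± 86.0 CPM (SD, n = 6) in quiescent type B cells and 78.8 ± 45.4 CPM (SD, n = 5) in activated type B cells, a difference within the spread between libraries. Development-associated microglia followed with 50.9 CPM, all 12 of their UMIs coming from PT D1 library 2. Type C cells, neuroblasts and the other microglial subtypes all lay between 7.44 and 15.2 CPM, with overlapping counting intervals. No neighbours in this order differed beyond their spread. The 20 cells named unknown or ependymal, which are not part of this order, held 215 CPM.

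Id2 was the one Id gene with high levels in both classes. Activated microglia, a subtype found only in the PT D1 libraries (104 cells), stood at 732 CPM, with 825 and 598 CPM in its 2 libraries. Quiescent type B cells stood at 707 CPM, with a mean of 685 ± 343 CPM (SD, n = 6), which was not apart from the activated microglia. Development-associated microglia followed with 462 CPM, 35 of their 41 cells coming from PT D1 library 2. Disease-associated microglia held 190 CPM, homeostatic microglia 110 CPM and unknown microglia 91.7 CPM, and in these 3 the libraries overlapped. The later NSPC subtypes came last, at 58.2 CPM (type C), 48.0 CPM (activated type B) and 34.8 CPM (neuroblasts), again with overlapping libraries.

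Among the NSPC and microglial subtypes, Id3 was low outside quiescent type B cells. Its 212 UMIs in the 50 quiescent type B cells gave 704 CPM, with a mean of 769 ± 403 CPM (SD, n = 6), and the lowest of these libraries (334 CPM) lay above the highest library of any other NSPC or microglial subtype (74.4 CPM, activated type B cells at PT D1). All 8 UMIs behind 334 CPM and all 5 behind 74.4 CPM lay in 1 cell each. All other NSPC and microglial subtypes were at 36.0 CPM or lower and overlapped one another. The 20 cells named unknown or ependymal, which belong to neither class, held 306 CPM. In unknown microglia no Id3 UMI was counted in 59 cells, which allows up to 8.88 CPM (3 counts).

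Pooled over conditions, Id4 marked all NSPC subtypes and no microglial one. Quiescent type B cells led with a mean of 697 ± 417 CPM (SD, n = 6), and the lowest of their libraries (322 CPM) lay within the range of neuroblasts, whose libraries ran from 0 to 349 CPM. Type C cells (201 ± 53.6 CPM, n = 6), neuroblasts (193 ± 116 CPM, n = 6) and activated type B cells (106 ± 73.9 CPM, n = 5) overlapped, all errors being SDs over libraries. The microglial subtypes lay between 5.46 and 9.53 CPM.

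Set against all other NSPCs pooled, quiescent type B cells were higher by 1.87 for Id1, 3.93 for Id2, 5.11 for Id3 and 1.93 for Id4 on the log2 scale. The spread of this log2 ratio over libraries was 0.84 (SD, n = 5) for Id1, 0.50 for Id2, 1.45 for Id3 and 1.56 for Id4 (SD, n = 6 each). In all 6 libraries the ratio was above 0 for Id2, at 2.80 to 4.14, for Id3, at 3 to 6.45, and for Id4, at 0.31 to 4.89. For Id1 it was above 0, at 0.24 to 2.47, in 5 libraries, and PT D7 library 1 had no Id1 UMI in quiescent type B cells and gave no ratio.

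Several Id genes were often found in the same quiescent type B cell, and whether more often than their single shares give was not tested. In 32 of these 50 cells (64%), UMIs of 3 or 4 Id genes were present, against 13.3% in the activated ones, 6.38% of type C cells, 2 of 80 neuroblasts and 1.44% of microglia. With 1000 UMIs drawn at random from each cell (thinning), 22% of quiescent type B cells and none of the 172 other NSPCs or 416 microglia held 3 or more. In the 20 cells named unknown or ependymal the share was 40%, and 10% after thinning. Single genes did not all keep this order of subtypes. Id3 UMIs were found in 68% of quiescent type B cells (median 5303 UMIs per cell) and in 4.33% of microglia (median 4855 UMIs per cell). How much of the low shares in microglia is free RNA was not tested. For Id1 the shares were 44% and 5.53%. Id4 UMIs were found in 84% of quiescent type B cells, 44.4% of the activated ones, 68.1% of type C cells, 52.5% of neuroblasts and 3.85% of microglia. For Id2 the share was 80% in quiescent type B cells, 17.5% to 34.0% in the later NSPC subtypes, 47.4% in all microglia and 85.6% in activated microglia.

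Over the 9 subtypes, the genes with the most similar profile were found by Pearson's r of log2(CPM + 10) among 5977 genes that reached 50 CPM in at least 1 subtype. For Id1 these were Raver2 (r = 0.98), Wwtr1 (r = 0.97) and Alcam (r = 0.97). For Id3 they were Slc25a33 (r = 0.99), Gpld1 (r = 0.98) and Aldh1l1 (r = 0.98), the last an enzyme of folate metabolism widely used as an astroglial marker. For Id4 they were Gm14964, Nrxn2 and Scg3 (r = 0.99 each), and for Id2 Spsb1, Lrp10 and Card19 (r = 0.92, 0.92 and 0.91). Among the Id genes themselves r was 0.85 between Id1 and Id3 and 0.72 between Id3 and Id4, but 0.40 between Id2 and Id3 and -0.19 between Id2 and Id4. The 9 points share libraries and plates, and these values are descriptions only.

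To ask whether the Id genes changed after PT, UMIs were summed over the NSPCs or the microglia of each library and fitted with edgeR, and levels from here on are CPM after TMM scaling of the library sizes where a class is given as a whole. Genes were called by edgeR's quasi-likelihood test where the p, adjusted by Benjamini-Hochberg over all genes tested, was below 0.05. Nothing says that the 2 libraries of a condition came from separate mice. The p-values therefore measure only the spread between these libraries, which may be technical. The paper's plates hold more wells than the 192 of a library, so the 2 libraries of a condition may share a plate. Condition and plate could then not be told apart. Fewer cells with a transcript and less of it per cell cannot be told apart in these sums.

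In NSPCs, Id2 was the one Id gene called, and it was higher at PT D1. It stood at 67.1 and 160 CPM in the uninjured libraries, at 268 and 353 CPM at PT D1 and at 212 and 120 CPM at PT D7. Both PT D1 libraries lay above all others, and the uninjured and PT D7 libraries overlapped. In PT D1 library 1, 22 of the 36 Id2 UMIs lay in 1 quiescent type B cell, and a fit without that cell was not run. The log2 fold change of Id2 at PT D1 against uninjured was 1.28 ± 0.33 (SE; edgeR, adjusted p = 0.0424). Of the 4907 genes tested in NSPCs 2.12% were called in this comparison and 1.04% were called higher, against 1 of the 4 Id genes. The call of Id2 was lost in 8 of 14 other settings, with a log2 fold change between 0.94 and 2.21 throughout. It was lost without PT D1 library 2 (1.05, edgeR adjusted p = 0.206) and without uninjured library 1 (0.98, edgeR adjusted p = 0.180).

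The other 3 Id genes were not called in NSPCs at PT D1. Id1 stood at 67.1 and 43.5 CPM in uninjured, 37.3 and 121 CPM at PT D1 and 13.2 and 48.5 CPM at PT D7, and the PT D1 libraries spanned the uninjured ones (log2 fold change 0.84 ± 0.49 SE, edgeR adjusted p = 0.440). Id3 stood at 230 and 169 CPM in uninjured, 96.9 and 235 CPM at PT D1 and 212 and 128 CPM at PT D7, with full overlap (-0.09 ± 0.35 SE, edgeR adjusted p = 0.942). Id4 stood at 249 and 375 CPM in uninjured, 231 and 272 CPM at PT D1 and 304 and 308 CPM at PT D7 (-0.36 ± 0.27 SE, edgeR adjusted p = 0.594).

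At PT D7 against uninjured no Id gene was called in NSPCs, where edgeR called 0.0815% of the genes tested. The log2 fold changes were -0.29 ± 0.58 for Id1, 0.17 ± 0.38 for Id2, -0.31 ± 0.38 for Id3 and -0.09 ± 0.27 for Id4 (SE), with 0 of 4 at an unadjusted p under 0.05 and 0 of 4 called by DESeq2. Of all 4907 genes tested, 230 had an unadjusted p under 0.05 by edgeR. Between PT D7 and PT D1, edgeR called 0.632% of genes (0.408% lower) and no Id gene, with Id1 and Id2 at an unadjusted p under 0.05 and 0 of 4 called by DESeq2. Of all 4907 genes tested, 532 had such an unadjusted p here. Id2 fell short of a call with a log2 fold change of -1.11 ± 0.35 (SE, edgeR adjusted p = 0.170), and it was called without uninjured library 2 (-1.12), without PT D1 library 1 (-1.28) or without PT D7 library 1 (-1.39).

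**Figure D2:**
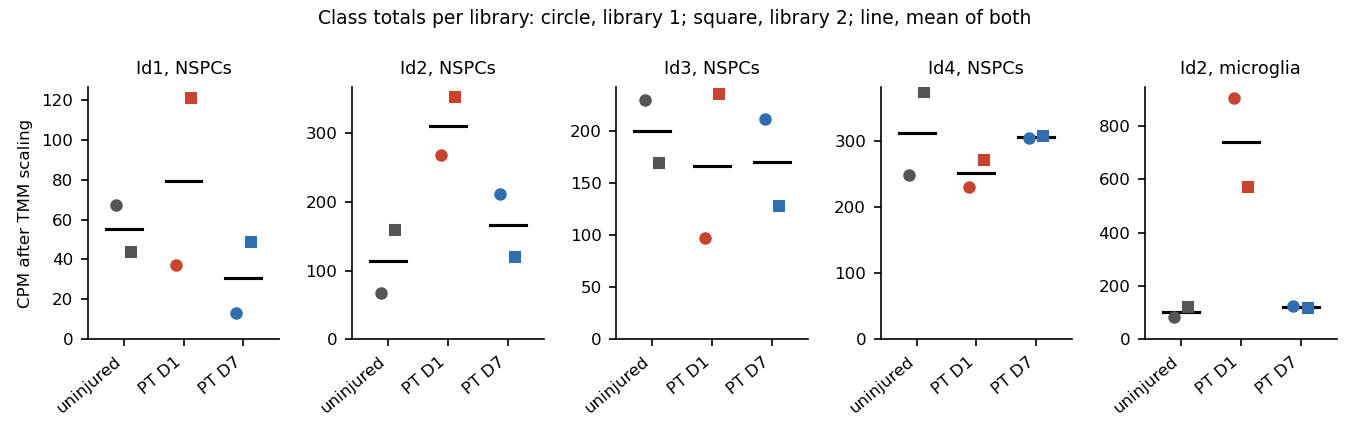
Levels (CPM after TMM scaling) of each Id gene in all NSPCs and of Id2 in all microglia, per library. Circles are library 1, squares library 2 and lines the mean of both. Id2 at PT D1 lies above the other conditions in NSPCs (268 and 353 CPM) and far above them in microglia (905 and 573 CPM), while the Id1 and Id3 libraries of PT D1 span the uninjured ones. In NSPCs of PT D1 library 1, 1 cell held 22 of the 36 Id2 UMIs.

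Most Id2 UMIs of the NSPCs lay in quiescent type B cells, from 71.4% to 83.8% in each library, although these cells were 18.0% to 26.9% of NSPCs. Within them, Id2 stood at 348 and 489 CPM in uninjured, 1128 and 1110 CPM at PT D1 and 483 and 550 CPM at PT D7. Both PT D1 libraries lay above the other 4. These levels rest on 3, 14, 4, 14, 4 and 11 cells, in the same order, so the counting interval of the smallest library was wide (113 to 811 CPM from 5 UMIs). At PT D1, 1 cell held 22 of the 27 Id2 UMIs of library 1, and the top cell of library 2 held 18 of 88. In a fit of the quiescent type B cells alone, chosen after seeing the data and able to test 506 genes, the log2 fold change of Id2 was 1.18 ± 0.39 (SE, edgeR adjusted p = 0.109) at PT D1, in a comparison that called 2.37% of genes. In the NSPCs without quiescent type B cells it was 0.94 ± 0.56 (SE, edgeR adjusted p = 0.451).

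Id4 went the other way in quiescent type B cells. It stood at 1460 and 845 CPM in uninjured, 418 and 479 CPM at PT D1 and 322 and 660 CPM at PT D7, so both uninjured libraries lay above all 4 PT libraries. In uninjured library 1, 13 of the 21 Id4 UMIs lay in 1 of the 3 quiescent type B cells, against 17 of 88 in library 2. The fit of these cells alone gave a log2 fold change of -1.33 ± 0.44 (SE, edgeR adjusted p = 0.109) at PT D1 and -1.07 ± 0.44 (SE, edgeR adjusted p = 0.847) at PT D7, where 0.198% of genes were called, and neither passed the threshold. Id3 stood at 1529 and 643 CPM in uninjured, 334 and 732 CPM at PT D1 and 604 and 770 CPM at PT D7, with overlap between all conditions (-0.82 ± 0.47 SE at PT D1, edgeR adjusted p = 0.353). Of its UMIs, 15 of the 22 in uninjured library 1 and all 8 in PT D1 library 1 lay in 1 cell each. Id1 stood at 69.5, 76.8, 83.5, 252, 0 and 147 CPM in the same order, from 0 to 20 UMIs a library, the 0 allowing up to 121 CPM (3 counts), and was too low to be tested. The microglial markers summed to 4026 CPM in the 4 quiescent type B cells of PT D7 library 1 and to between 240 and 403 CPM in the other libraries, and their part in the Id values of that library was not tested. The 4 choroid plexus markers split as Id4 did, with 2224 and 3215 CPM in the uninjured quiescent type B cells, 251 and 50.5 CPM at PT D1 and 80.5 and 110 CPM at PT D7, Folr1 being at 0 in all 6 libraries, and their part in the Id4 levels was not tested. The 7 endothelial markers summed to 63.1 CPM in quiescent type B cells, with Cldn5 and Kdr at 0.

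**Figure D3:**
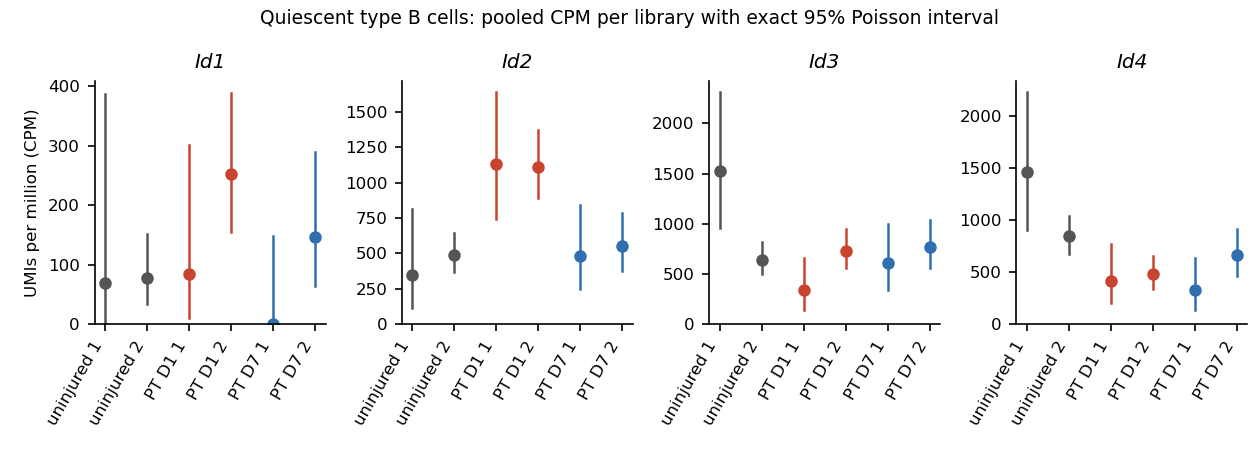
Levels of Id1 to Id4 in quiescent type B cells (CPM) in each of the 6 libraries, with exact 95% Poisson intervals that cover counting error only. For Id2 both PT D1 points (1128 and 1110 CPM) lie above the others, and for Id4 both uninjured points (1460 and 845 CPM) do. A single cell held 22 of the 27 UMIs behind 1128 CPM, and another 13 of the 21 behind 1460 CPM.

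In microglia, Id2 rose at PT D1 and fell from PT D1 to PT D7. From the same cells, the paper lists Id2 among the markers of its microglial cluster 1, predominant at PT D1. Id2 stood at 85.0 and 122 CPM in uninjured, 905 and 573 CPM at PT D1 and 125 and 119 CPM at PT D7. The lowest PT D1 library lay above every other library, and the uninjured and PT D7 libraries overlapped. The log2 fold change was 2.82 ± 0.31 (SE; edgeR, adjusted p = 0.000653) at PT D1 against uninjured, where 5.7% of the 4846 genes tested in microglia were called and 2.72% were called higher. From PT D1 to PT D7 Id2 fell by 2.59 ± 0.32 (SE; edgeR, adjusted p = 0.00128) on the log2 scale, where 3.8% of genes were called and 2.1% were called lower, a call lost with cells thinned to 1000 UMIs (-2.78, edgeR adjusted p = 0.0507). At PT D7 against uninjured the log2 fold change was 0.22 ± 0.33 (SE; edgeR, adjusted p = 0.931) in a comparison that called 0.165% of genes, and DESeq2 did not call it either. The rise at PT D1 was called in all 13 other settings, at 2.42 to 3.16.

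Most microglia of the PT D1 libraries held Id2. Id2 UMIs were found in 25.4% and 33.3% of uninjured microglia, 88.7% and 57 of 76 of PT D1 microglia and 25.9% and 28.3% of PT D7 microglia, in a class whose median depth per library was 4155 to 5523 UMIs. The median microglial cell held 3 and 2 Id2 UMIs in the PT D1 libraries and 0 in each of the other 4. Cells with 5 or more were 27 of 71 and 18 of 76 at PT D1, and 0, 4, 2 and 1 in the other libraries. With every cell thinned to 1000 UMIs the shares were 7.04% and 7.14%, then 46.5% and 31.6%, then 13.0% and 3.33%. In neuroblasts, the subtype with the lowest Id2 level, 17.5% of cells held an Id2 UMI (7.50% thinned, 6 cells). The thinned shares of uninjured microglia, from 5 and 6 cells, were at that level, but their unthinned shares lay above it. In pooled counts, homeostatic microglia stood at 110 CPM (exact 95% Poisson interval 88.4 to 134 CPM) and neuroblasts at 34.8 CPM (19.9 to 56.5 CPM).

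**Figure D4:**
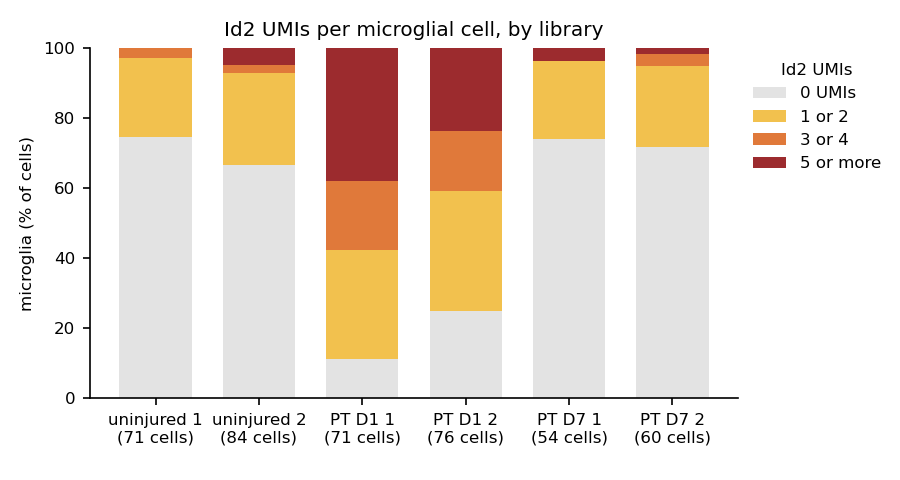
Share of microglia (% of cells) with 0, 1 or 2, 3 or 4, and 5 or more Id2 UMIs in each library, as stacked bars. Cells without Id2 are 8 of 71 and 19 of 76 in the PT D1 libraries and 53 of 71, 56 of 84, 40 of 54 and 43 of 60 in the uninjured and PT D7 libraries.

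Microglial subtype and condition went together. All 104 activated microglia and 36 of 41 development-associated microglia came from the PT D1 libraries, whereas 1 of 175 homeostatic microglia did, so level by subtype and level by condition cannot be told apart. Few PT D1 cells fell into other subtypes. In library 1, Id2 stood at 752 CPM in 4 unknown microglia (16 UMIs) and 863 CPM in 2 disease-associated microglia (9 UMIs). The other libraries of these subtypes ran from 16.1 to 77.7 CPM and from 118 to 222 CPM. The 1 homeostatic cell of PT D1, in library 2, held 0 Id2 UMIs. Without the development-associated cells the log2 fold change at PT D1 was 2.88 ± 0.24 (SE; edgeR, adjusted p = 4.83e-06). The 8 microglial markers summed to 15227 and 15122 CPM in uninjured, 8379 and 6090 CPM at PT D1 and 11543 and 11163 CPM at PT D7, and the 7 markers of monocytes, granulocytes and border macrophages to 23.7 CPM in activated microglia, with Ly6c2 and Lyve1 at 0. The 4 choroid plexus markers summed to 10525 and 4650 CPM in uninjured microglia, 592 and 458 CPM at PT D1 and 603 and 196 CPM at PT D7. The part of these in the Id2 change was not tested.

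Id1, Id3 and Id4 were too low in microglia to pass the filter on low counts. Over all 416 microglia they held 31, 21 and 17 UMIs against 685 of Id2, counts that are not scaled to transcript length. Their levels, without TMM scaling, were at most 31.3, 17.9 and 13.5 CPM in any library, with overlap between conditions. Without the filter, none was called (Id1 at PT D1, log2 fold change 1.12 ± 0.72 SE, edgeR adjusted p = 0.768).

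Whether Id genes changed differently in the 2 classes was asked in 1 fit with class, condition and library. Id2 rose at PT D1 by 1.25 ± 0.49 less (SE, log2 scale) in NSPCs than in microglia, with an unadjusted p of 0.0106 but an edgeR adjusted p of 0.491, so the difference did not pass the threshold. No Id gene was called in this fit at PT D1 or PT D7, Id2 at PT D1 being the only one of 4 with an unadjusted p under 0.05, where 0.24% and 0.0399% of 7514 genes were called. In simulated data for PT D1 such a fit recovered 47.5% of 4-fold changes (6720 genes), so a missing call says little.

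The E proteins, partners of the Id proteins, were lowest in quiescent type B cells among NSPCs. In the order of subtypes used above, Tcf4 stood at 1043, 1307, 2218 and 2128 CPM, Tcf3 at 16.6, 76.9, 137 and 78.2 CPM, and Tcf12 at 59.8, 125, 129 and 99.97 CPM. Olig2, a factor of the oligodendrocyte lineage and of progenitors, peaked in activated type B cells, at 161 CPM, as did Hes6, an antagonist of Hes1, at 454 CPM. Hes5, a Notch target, was highest in quiescent type B cells, at 176 CPM. These are descriptions with no test, like those of the Id genes.

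**Figure D5:**
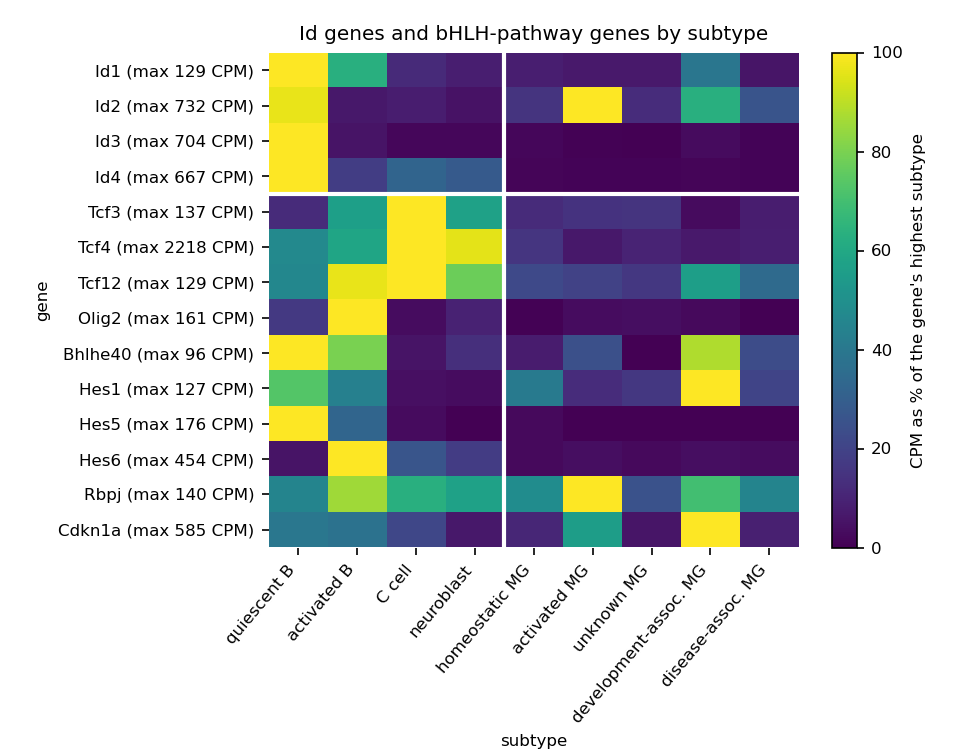
Levels of the Id genes, E proteins (Tcf3, Tcf4, Tcf12) and selected bHLH, Notch and cell-cycle genes in 9 subtypes, each as a percentage of the gene's highest subtype, whose CPM stands beside its name. Id genes are brightest in quiescent type B cells, apart from Id2, which is brightest in activated microglia, while the E proteins are brightest in type C cells.

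After PT, the E proteins were not called in NSPCs, and Tcf4 fell in microglia. Among the genes tested in microglia, 2.97% were called lower at PT D1. There Tcf4 stood at 329 and 365 CPM in uninjured, 173 and 155 CPM at PT D1 and 234 and 204 CPM at PT D7, with both PT D1 libraries lowest (log2 fold change at PT D1 -1.08 ± 0.25 SE, edgeR adjusted p = 0.0275). It was the 1 called of the 2 E proteins tested there, and the call was lost with DESeq2, with thinned cells and without either uninjured library. In NSPCs Tcf4 stood at 2357 and 2540 CPM in uninjured, 1872 and 1520 CPM at PT D1 and 1601 and 1695 CPM at PT D7 (-0.54 ± 0.19 SE at PT D1, edgeR adjusted p = 0.152). The median over the 3 E proteins in NSPCs at PT D1 was -0.27, against 0.03 over all genes tested, and over the 2 in microglia -0.22, against 0.04. Those 2 had opposite signs, Tcf12 being at 0.63 ± 0.53 (SE, edgeR adjusted p = 0.542).

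Among the 12 tissue bHLH factors, 3 could be tested in NSPCs and 2 rose at PT D1, where 1.04% of all genes tested were called higher. The median of these 3 was 2.41, which is the value of Bhlhe40 itself. Olig2 stood at 19.2 and 14.5 CPM in uninjured, 59.7 and 145 CPM at PT D1 and 39.7 and 62.8 CPM at PT D7 (2.80 ± 0.55 SE at PT D1, edgeR adjusted p = 0.00493), and Bhlhe40, a bHLH repressor of clock and stress responses, had 38.3 and 14.5, then 52.2 and 145, then 26.5 and 20.0 CPM (2.41 ± 0.57 SE at PT D1, edgeR adjusted p = 0.0232). Both calls were lost with DESeq2 and without uninjured library 2, and that of Olig2 also without cells holding 3 or more microglial markers. Of the 11 Notch and Hes genes, 6 were tested in NSPCs and 1 rose, Hes6, with 182 and 91.9 CPM in uninjured against 358 and 282 CPM at PT D1 (1.39 ± 0.35 SE, edgeR adjusted p = 0.0375), a call also lost with DESeq2, with a library block or without uninjured library 2, and the list median was 0.29. In microglia 4 were tested and 1 rose, Rbpj, the DNA-binding factor of Notch signaling (1.26 ± 0.33 SE, edgeR adjusted p = 0.0499), the list median being 0.95, and its call was lost with DESeq2, with library totals in place of TMM, or without uninjured library 1, uninjured library 2, PT D1 library 2 or PT D7 library 1. None of the 3 tissue bHLH factors tested in microglia was called. Activated type B cells, in which Olig2 and Hes6 peaked, made up 25% and 6.78% of uninjured NSPCs, 31.6% and 36.5% of PT D1 NSPCs and 0% and 19.7% of PT D7 NSPCs. Their 5 markers summed to 723 and 527 CPM in uninjured NSPCs, 1176 and 1202 CPM at PT D1 and 497 and 1122 CPM at PT D7. Neuroblasts made up 37.5% and 49.2% of uninjured NSPCs and 21.1% and 28.8% of PT D1 NSPCs. Bhlhe40 stood at 96.3, 76.9, 5.06 and 13.0 CPM from quiescent type B cells to neuroblasts. The part of these shares in the changes of Olig2, Hes6 and Bhlhe40 was not tested.

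Cdkn1a, which encodes the cyclin-dependent kinase inhibitor p21 and is known to be activated by E proteins and held down by Id proteins, rose together with Id2 in both classes at PT D1. In microglia it stood at 48.1 and 66.4 CPM in uninjured, 304 and 515 CPM at PT D1 and 50.1 and 81.6 CPM at PT D7 (2.82 ± 0.35 SE at PT D1, edgeR adjusted p = 0.0013). In NSPCs it stood at 144 and 62.9 CPM in uninjured, 410 and 383 CPM at PT D1 and 26.5 and 45.7 CPM at PT D7 (2.18 ± 0.34 SE at PT D1, edgeR adjusted p = 0.000969). From quiescent type B cells to neuroblasts it stood at 232, 221, 124 and 36.9 CPM. The part of the subtype shares in its change in NSPCs was not tested. From PT D1 to PT D7 its log2 fold change was -2.62 in microglia and -3.24 in NSPCs (edgeR adjusted p = 0.00269 and 3.64e-05). Of the calls of Cdkn1a, that of NSPCs at PT D1 was lost without uninjured library 2, and that of microglia from PT D1 to PT D7 without PT D7 library 1 or with thinned cells. It was the 1 called of 4 tested among the 10 other Id partners and Id-linked genes in each class at PT D1, where 1.04% of all genes tested in NSPCs and 2.72% in microglia were called higher, and the medians of that list were 0.21 in NSPCs and 0.44 in microglia.

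No gene of the BMP and TGF-beta pathway was called by edgeR or DESeq2 in either class in any comparison. At PT D1, 0 of the tested genes of these lists in NSPCs and 1 in microglia, Tgfbr1, had an unadjusted p under 0.05 by edgeR. Over all genes tested there, such a p was found for 724 of 4907 in NSPCs and 1066 of 4846 in microglia. After adjustment, edgeR called 2.12% and 5.7% of them. None of the 11 ligands was high enough to be tested in NSPCs, and in microglia Tgfb1 alone was, with a log2 fold change of -0.31 ± 0.32 at PT D1 (SE, edgeR adjusted p = 0.628). Of the 12 receptors 4 were tested in NSPCs and 6 in microglia, of the 6 Smads 3 in each, and of the 13 inhibitors 3 and 4. At PT D1 the list medians in NSPCs were -0.02 for receptors, 0.08 for Smads and 0.29 for inhibitors, and in microglia -0.36, 0.09 and -0.02. Bmpr1a, a type 1 BMP receptor, had 143 CPM in quiescent type B, 50.4 CPM in activated type B, 104 CPM in type C cells and 41.3 CPM in neuroblasts, and Ski, a corepressor of Smads, had 173 CPM in the first and 60.9 CPM in the last of these. Smad4 stood at 125 and 106 CPM in the uninjured NSPCs and 134 and 90.8 CPM at PT D1 (-0.06 ± 0.38 SE, edgeR adjusted p = 0.963). Smad1 stood at 38.3 and 36.3 CPM in uninjured NSPCs, 59.7 and 80.7 CPM at PT D1 and 0 and 37.1 CPM at PT D7. Its log2 fold change at PT D1 was 0.97 ± 0.54 (SE, edgeR adjusted p = 0.414), and that of Smad5 was 0.08 ± 0.35 (SE, edgeR adjusted p = 0.946). In microglia the TGF-beta receptor Tgfbr1 stood at 903 and 870 CPM in uninjured, 574 and 396 CPM at PT D1 and 635 and 627 CPM at PT D7, both PT D1 libraries lowest, and did not pass the threshold (-0.87 ± 0.26 SE, edgeR adjusted p = 0.076).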

How the data were processed

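SVZ cells were sequenced by mCEL-Seq2 in 6 libraries. Per the labels, bcl2fastq 2.17.1.14 served for demultiplexing and GRCm39 as genome, and the aligner is not given in the sources used here. As deposited, counts are UMIs per gene and cell, made by the authors without normalization, from cells with more than 1000 UMIs. The mitochondrial percent of each cell, its class and its subtype come from the table deposited by the authors, of which 14 columns were not used. For PT D7 the library number was read from the last number of the cell names.

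UMIs were summed per library and class and fitted over the 3 conditions in edgeR 4.0.16 (R 4.3.3) with TMM, filterByExpr and the quasi-likelihood F-test, with Benjamini-Hochberg adjustment over all genes tested. SE is the log2 fold change divided by the root of F. ERCC rows (92, with 0 UMIs) were left out. Pooled CPM carry exact 95% Poisson intervals, which cover counting error only, and 3 counts set the limit for a count of 0. Doublets were not called again. In data simulated for PT D1 against uninjured, 80% (NSPCs, 4467 genes) and 77% (microglia, 4546 genes) of 4-fold changes were recovered, but 11.5% and 7% of 2-fold ones.

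The alternatives were DESeq2 1.42.0, library totals, no filter, the library number as a block, each library left out, cells thinned to 1000 UMIs, cells with 3 or more markers of the other class left out, and subtypes left out. Libraries of the same number deviated together in microglia (correlations across genes of 0.22, 0.193 and 0.262 between conditions). The blocked fit changed no call of Id2 there but called 639 of the 4846 genes at PT D1 against 276. NSPCs and microglia were compared in a fit with library as a block. Named genes were Id1 to Id4, genes of fixed pathway lists that were called or were among the 3 most abundant of their list in NSPCs, and the 3 genes most alike to each Id gene. Hes1, Hes5 and Tgfb1 were added to them after their values were seen. A gene of the lists is not reported here. The members and lists were chosen with earlier results of these data known.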

Additional observations from a re-analysis of the deposited data

Results flagged for a closer look

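The 20 cells that the authors named unknown or ependymal entered no comparison. Pooled per condition, Id2 and Id3 lay above the level of the 4 uninjured cells of this kind, which all came from 1 library, so no difference between conditions was tested and the intervals cover counting error only. Id2 stood at 667 CPM in 8 cells of PT D1 (exact 95% Poisson interval 485 to 896 CPM), against 36.2 CPM (4.39 to 131 CPM) in uninjured, and 36 of its 44 UMIs lay in 1 cell. By library it was 961 and 129 CPM at PT D1, the second within the uninjured interval. Id3 stood at 561 CPM at PT D1 (395 to 773 CPM) and at 276 CPM in 8 cells of PT D7 (164 to 436 CPM), against 36.2 CPM in uninjured. By library Id3 was 586 and 515 CPM at PT D1, and 447 and 68.0 CPM at PT D7, where 13 of the 18 UMIs lay in 1 cell and the second library was within the uninjured interval. Id4 stood at 435 CPM (279 to 647 CPM) in uninjured, 334 CPM at PT D1 and 46.0 CPM (9.48 to 134 CPM) at PT D7, and Id1 at 199, 152 and 291 CPM, all within the uninjured interval of 99.5 to 357 CPM. These cells also differed in kind between conditions. The 4 choroid plexus markers summed to 97266 CPM in the 4 uninjured cells, all from library 2, to 93.8 and 301 CPM in the PT D1 libraries and to 1340 and 1223 CPM in the PT D7 libraries. The 7 endothelial markers summed to 1721 CPM in uninjured, 23.4 and 258 CPM at PT D1 and 7456 and 5640 CPM at PT D7, and the 7 markers of quiescent type B cells to 2537 CPM, then 3774 and 3907 CPM, then 251 and 1325 CPM. The 4 ependymal markers summed to 2102 CPM in uninjured, 2508 and 3134 CPM at PT D1 and 0 and 951 CPM at PT D7. The 5 oligodendrocyte lineage markers summed to 36776 CPM in PT D7 library 1 and to at most 816 CPM in the other libraries. The part of these cell types in the Id values was not tested.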

How the results depend on the processing

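In NSPCs at PT D1 against uninjured, the number of Id genes called fell from 1 to 0 with DESeq2, with the library number as replicate block, with cells thinned to 1000 UMIs, without cells holding 3 or more markers of the other class, without quiescent type B cells and, in a fit chosen after seeing the data, with quiescent type B cells only. For Id2 these gave log2 fold changes of 1.35, 1.31, 1.35, 1.09, 0.94 and 1.18 (adjusted p = 0.319, 0.0652, 0.507, 0.105, 0.451 and 0.109, edgeR except the first). The cause was not tested, although the last 3 sum fewer cells and thinning leaves fewer UMIs. With a library left out the number was 0 to 1 there and from PT D1 to PT D7, and 0 to 0 at PT D7 against uninjured. In microglia it was 1 to 1 at PT D1 and from PT D1 to PT D7 and 0 to 0 at PT D7 against uninjured, and for the difference between classes 0 to 0 at both times. Thinning to 1000 UMIs took the microglial number from PT D1 to PT D7 from 1 to 0 (Id2 -2.78, edgeR adjusted p = 0.0507).

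The log2 ratio of quiescent type B cells to other NSPCs with a library left out ran from 1.58 to 1.99 for Id1, 3.76 to 4.04 for Id2, 4.80 to 5.65 for Id3 and 1.69 to 2.05 for Id4. With thinned cells that of Id1 moved to 3.66, from few UMIs. In NSPCs the correlations between libraries of the same number were 0.095, -0.0581 and -0.041. The libraries numbered 1 held only 16, 19 and 15 NSPCs, against 59, 52 and 61 in those numbered 2. These correlations therefore cannot settle whether the replicate block there holds a shared effect. Library totals in place of TMM shifted the median log2 fold change of all genes to -0.245 in microglia at PT D7, -0.114 there from PT D1 to PT D7 and 0.103 at PT D1 in NSPCs, and changed no call of an Id gene. No result that was called changed its sign under any alternative run.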
